A study of Mus musculus with 2 samples.

Results

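Phosphatidylcholine and phosphatidylethanolamine are the main phospholipids of cell membranes, and 10 mouse genes of their synthesis and supply were followed in plasmacytoma cells in which the formation of S-adenosylmethionine (SAM) had been inhibited. The 10 were taken by name from the deposited table of 43346 gene features, and each had 1 row. They are the choline kinase genes Chka and Chkb, the ethanolamine kinase gene Etnk1, the cytidylyl transferase genes Pcyt1a and Pcyt2, the phosphotransferase genes Chpt1 and Cept1, the methyltransferase gene Pemt, the phosphatidylserine synthase gene Ptdss1 and the lysophospholipid transporter gene Mfsd2a. The cycloleucine group was X63/0 (X63-Ag8.653) cells given 30 mM cycloleucine for 3 h, and the untreated group was the same line without it. X63/0 is a mouse plasmacytoma line, a malignant counterpart of the antibody-secreting plasma cell, and both groups were grown in the same serum-containing medium. Cycloleucine, an analogue of an amino acid, inhibits the enzyme methionine adenosyltransferase, which makes SAM from methionine. The drug was added from a stock in medium. The sources used here do not say whether the untreated cells were given medium alone. Ribosomal RNA was depleted from total RNA before sequencing on an Ion Proton.

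Each group had 1 library. No difference could be checked against replicates and p-values are left out, although the design text of the series describes a triplicated experiment. The cycloleucine library held 31951946 reads in genes and the untreated library 27127865, of which 49.4% in the cycloleucine and 48.4% in the untreated library lay in exons. Of 10 plasma cell markers 9 had enough reads, with Mzb1 highest, at 401 RPKM in the cycloleucine and 398 RPKM in the untreated library. Other markers differed more. Slamf7 had 12.0 RPKM with cycloleucine and 9.41 without, Tnfrsf17 18.5 with and 14.7 without, and Cd28 2.00 with and 1.35 without. Sdc1 went the other way, with 51.7 RPKM with cycloleucine and 58.0 without. The surface marker gene Cd38 had only 2 exon reads in the cycloleucine and 4 in the untreated library. The B cell markers were mixed. Cd79b had 52.6 RPKM with cycloleucine and 50.5 RPKM without, Cd74 4.64 with and 4.76 without, Ms4a1 3.11 with and 3.03 without, and Ebf1 1.41 in both, while Cd79a, Cr2 and Pax5 had at most 2 exon reads in either library. Liver markers, of interest because Pemt is best known from liver, summed to 2 exon reads in the cycloleucine and 5 in the untreated library over 4 genes. T and natural killer cell markers summed to 10 reads with cycloleucine and 15 without, fibroblast markers to 18 with and 35 without, and myeloid markers to 87 with and 87 without. Of 5 myeloid markers 1 had enough reads, Cd68, at 1.15 RPKM with cycloleucine and 1.17 RPKM without.

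In the Kennedy pathway choline or ethanolamine is first phosphorylated by a kinase, then activated with CTP by a cytidylyl transferase, and finally joined to diacylglycerol by a phosphotransferase. Phosphatidylcholine can also be made by PEMT, which methylates phosphatidylethanolamine with SAM as the methyl donor, a route best known from liver. PTDSS1 exchanges the choline of phosphatidylcholine for serine, and the phosphatidylserine formed can be turned into phosphatidylethanolamine in mitochondria. Plasma cells are known for a much enlarged endoplasmic reticulum, whose membranes consist largely of these lipids. The transcription factor XBP1 is known to raise the synthesis of phosphatidylcholine when this membrane expands.

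The lowest and the highest log2 fold change among the 9 members with enough reads were those of Mfsd2a and Chka, and their promoters are shown as the sequences in front of these transcripts. RefSeq promoters were matched for 8 of the 10 members by symbol, on build GRCm38.p6, the assembly that mm10 stands for. The 250 bases before each annotated start are printed 5′ to 3′ on the strand of the gene, with CCAAT or its reverse complement ATTGG in capitals. The Mfsd2a window is chr4:122961189-122961438 on the minus strand and the Chka window is chr19:3851523-3851772 on the plus strand.
Mfsd2a: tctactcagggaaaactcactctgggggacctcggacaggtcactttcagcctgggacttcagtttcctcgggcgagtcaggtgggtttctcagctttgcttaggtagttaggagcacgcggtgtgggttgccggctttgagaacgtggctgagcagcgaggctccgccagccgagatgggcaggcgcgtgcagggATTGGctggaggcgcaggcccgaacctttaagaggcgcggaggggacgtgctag
Chka: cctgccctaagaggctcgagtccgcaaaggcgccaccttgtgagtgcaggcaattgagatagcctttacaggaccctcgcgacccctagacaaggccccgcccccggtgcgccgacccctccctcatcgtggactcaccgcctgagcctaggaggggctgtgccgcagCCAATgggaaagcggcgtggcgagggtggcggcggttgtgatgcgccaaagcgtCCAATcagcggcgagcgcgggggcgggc
On either strand, Mfsd2a held 1 CCAAT and 2 ACGTG, the core letters of many E-boxes and hypoxia elements, and no GGGCGG or TATAAA. Chka held 2 CCAAT and 2 GGGCGG, the GC box, and no ACGTG or TATAAA. Of 32851 promoter windows of this length in the table, 33.9% held CCAAT, 16.6% ACGTG, 32.7% GGGCGG and 12.4% TATAAA. No match overlapped another in these windows, and a match describes the sequence, not a bound site.

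The members differed widely in level. Levels are RPKM, exon reads scaled by exon length and by all gene reads of the library, with 95% exact Poisson intervals that cover counting error only. In the cycloleucine library Etnk1 was highest, at 12.2 RPKM (11.8 to 12.7), followed by Ptdss1 at 9.53 (8.96 to 10.1) and Mfsd2a at 6.13 (5.58 to 6.73). In the untreated library the first 3 were Ptdss1 at 10.9 RPKM (10.3 to 11.6), Etnk1 at 10.6 (10.1 to 11.0) and Mfsd2a at 10.01 (9.23 to 10.8). There the counting intervals of Ptdss1 and Etnk1 overlapped, as did those of Etnk1 and Mfsd2a. Mfsd2a thus stood level with Etnk1 in the untreated library within counting error and lay below it in the cycloleucine library.

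By RPKM the lower part of the order was Cept1, Chkb, Pemt, Chka and Chpt1 in both libraries. Counting intervals of Chkb and Pemt overlapped in both libraries. Those of Pemt and Chka overlapped with cycloleucine, and those of Chka and Chpt1 without. This order also depends on the annotated exon length, 12024 bases for Chka against 2104 for Pemt. The exon length used for Chkb, 5805 bases, includes bases outside that gene, as described below. Chka had more exon reads than Pemt, 467 against 108 with cycloleucine and 319 against 91 without. Pemt had 1.61 RPKM in the cycloleucine library and 1.59 RPKM in the untreated library. Chpt1, which encodes the choline-specific phosphotransferase of the last step, was lowest, at 0.699 RPKM in the cycloleucine and 0.921 RPKM in the untreated library. Cept1, whose product takes both CDP-choline and CDP-ethanolamine, stood at 4.02 RPKM in the cycloleucine and 3.43 RPKM in the untreated library, above Chpt1 in each beyond counting error. The size of this gap also depends on exon length, 3116 bases for Cept1 against 8324 for Chpt1. In exon reads Cept1 had 400 against 186 with cycloleucine and 290 against 208 without.

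**Figure D1:**
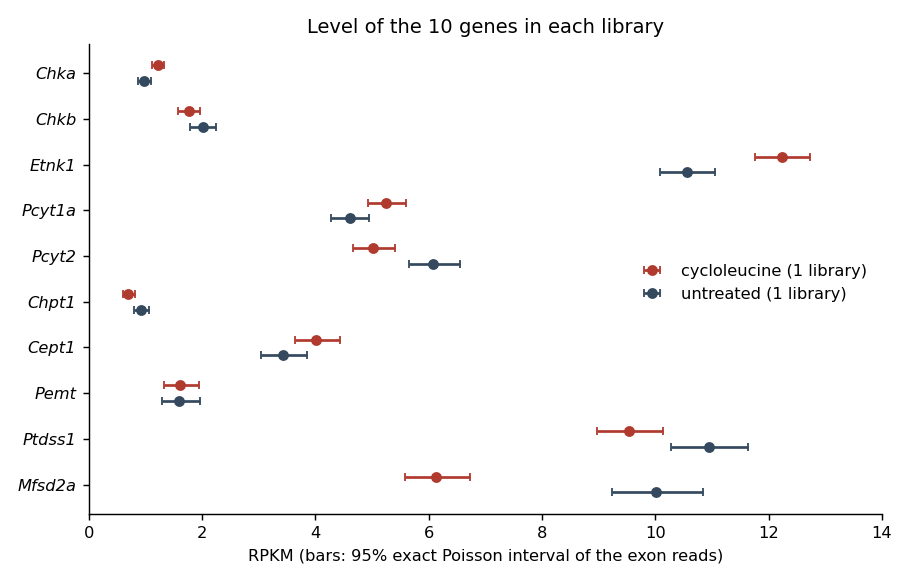
RPKM of the 10 genes (horizontal axis) in the cycloleucine library (red) and the untreated library (dark blue), 1 library each, with 95% exact Poisson intervals as bars. Mfsd2a lies at 6.13 RPKM with cycloleucine and 10.01 RPKM without, and the bars of the libraries are apart.

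A log2 fold change was the log2 of the cycloleucine RPKM plus 0.1 over the untreated RPKM plus 0.1, so that changes of low genes are understated, and 0 means no difference. The interval given with it is a 95% exact counting interval of the ratio of exon reads, computed without the added 0.1. In place of a test, a gene was called higher or lower when it differed by at least 1.5-fold (0.58 in log2), among 9101 features with at least 1 RPKM in either library and at least 50 exon reads over both. Of the 10 members 9 met these limits, and Chpt1 was too low. One of the 9, Mfsd2a, was called lower and 0 were called higher, against 4.04% of all kept features in either direction, 1.88% lower and 2.16% higher. The counting interval excluded no change in 7 of the 9 members, but also in 43.6% of all kept features, so such an interval does not set a gene apart here. The median log2 fold change of the 9 was 0.01, with 5 above and 4 below 0, and that of all kept features was 0.0022, with 50.6% above 0.

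Mfsd2a encodes a sodium-dependent transporter of lysophosphatidylcholine, best known for carrying lipids that contain docosahexaenoic acid across the blood-brain barrier. It had 441 exon reads in the cycloleucine library, against 611 in the untreated library. This is 6.13 RPKM with cycloleucine, against 10.01 RPKM without. The log2 fold change, with 0.1 RPKM added to both levels, was -0.70 (-0.89 to -0.53), or 1.62-fold lower. The libraries lay apart by more than counting error, and the untreated library was the higher. In a bulk sample fewer cells with a transcript and less of it per cell cannot be told apart. Among 7232 annotated features with 199 to 4354 exon reads, the range of the 9 members, 39 (0.539%) were at least as low as Mfsd2a and 2.85% differed by at least 1.5-fold either way.

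The spliced and unspliced reads of Mfsd2a lay below 0 as well. Uniquely placed junction reads, those that span a splice and so stem from spliced RNA, numbered 147 in the cycloleucine library, against 187 in the untreated library, a log2 fold change of -0.55 (-0.87 to -0.23). Intron reads, which come largely from unspliced RNA, numbered 120 with cycloleucine, against 128 without, a log2 fold change of -0.33 (-0.70 to 0.04) that includes 0. Intron over exon reads of Mfsd2a gave a log2 ratio change of 0.38 (-0.02 to 0.78). Nearly all its exon reads were uniquely placed, 99.3% with cycloleucine and 100.0% without, and no gene of GENCODE M21 overlaps it.

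The next gene in front of Mfsd2a, named here after its values were seen, also lay lower. It is 4933421A08Rik, a processed transcript on the opposite strand whose annotated start at base 122961309 lies within the Mfsd2a window printed above, with 120 bases between the genes. It had 27 exon reads in the cycloleucine library, against 71 in the untreated library, all uniquely placed. Its level was 0.516 RPKM with cycloleucine, against 1.598 RPKM without, a log2 fold change of -1.46 (-2.33 to -0.97). Among all kept features, whatever their read depth, 0.813% differed by at least 2-fold either way. No share was computed for features with as few reads as 4933421A08Rik.

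The first step of the Kennedy pathway had members on both sides of 0. Chka, the choline kinase alpha gene, had 467 exon reads with cycloleucine, against 319 without, or 1.22 RPKM with cycloleucine, against 0.978 RPKM without, and a log2 fold change of 0.29 (0.11 to 0.52). Its junction reads were 126 in the cycloleucine and 76 in the untreated library, a log2 fold change of 0.53 (0.11 to 0.96). Both lay short of 1.5-fold. Intron reads of Chka lay on the other side of 0, with 135 in the cycloleucine and 144 in the untreated library, a log2 fold change of -0.33 (-0.68 to 0.02).

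Etnk1, which encodes the ethanolamine kinase, had 2513 exon reads with cycloleucine, against 1841 without, and a log2 fold change of 0.21 (0.13 to 0.30). Intron and exon reads of Etnk1 lay on the same side of 0, with 537 intron reads in the cycloleucine and 401 in the untreated library and a log2 ratio change of -0.03 (-0.23 to 0.18). Chkb, the choline kinase beta gene, had 328 exon reads with cycloleucine, against 316 without, and a log2 fold change of -0.17 (-0.41 to 0.05). Its junction reads were 86 in the cycloleucine and 120 in the untreated library, a log2 fold change of -0.68 (-1.10 to -0.27), past 1.5-fold lower. Its intron reads were few, 8 with cycloleucine, against 17 without.

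The Chkb row cannot be read as Chkb alone. In the deposited table it covers chromosome 15 from 89416405 to 89429908, whereas GENCODE M21 places Chkb from 89426360 to 89429908 and its downstream neighbour Cpt1b from 89416405 to 89425863. Cpt1b, which encodes a carnitine palmitoyltransferase, had a row of its own with 0 exon reads in both libraries. Gm44502, a further protein-coding gene on the same strand, overlaps 13292 bases of the row. C730034F03Rik on the opposite strand overlaps it by 320 bases and had 67 exon reads with cycloleucine and 64 without. The part of these genes in the Chkb values was not tested. The exon length of the Chkb row, 5805 bases, exceeds the 3549 bases that Chkb spans in GENCODE M21. The RPKM of the row and its place among the members therefore also depend on bases outside Chkb.

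In the second step the cytidylyl transferases stood on opposite sides of 0. Pcyt1a encodes the CTP:phosphocholine cytidylyl transferase that usually limits the rate of the choline branch. It had 965 exon reads in the cycloleucine library, against 718 in the untreated library, and a log2 fold change of 0.19 (0.05 to 0.33). Its 80 junction reads with cycloleucine, against 66 without, gave 0.08 (-0.41 to 0.57).

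Pcyt2 encodes the ethanolamine counterpart. It had 697 exon reads with cycloleucine, against 717 without, or 5.02 RPKM with cycloleucine, against 6.08 RPKM without, and a log2 fold change of -0.27 (-0.43 to -0.12). Junction reads of Pcyt2 gave -0.24 (-0.51 to 0.02), from 237 in the cycloleucine and 244 in the untreated library. Its intron reads were few, 41 with cycloleucine and 60 without, and lay at -0.78 (-1.40 to -0.19), past 1.5-fold lower. With cycloleucine the counting intervals of both levels overlapped, at 5.25 RPKM for Pcyt1a (4.93 to 5.59) and 5.02 RPKM for Pcyt2 (4.65 to 5.41). Without it Pcyt1a lay below Pcyt2, at 4.60 RPKM (4.27 to 4.95), against 6.08 RPKM (5.64 to 6.54). None of these exon values reached 1.5-fold.

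At the last step Cept1 had 400 exon reads with cycloleucine, against 290 without, a log2 fold change of 0.22 (0.0061 to 0.45). Its junction reads gave 0.54 (-0.0042 to 1.10), from 77 with cycloleucine and 46 without, and its intron reads 0.35 (0.04 to 0.67), from 213 with cycloleucine and 142 without. All 3 kinds of read of Cept1 thus lay above 0 and short of 1.5-fold. Cept1 shares 771 bases with Dennd2d on the opposite strand, and the sources used here do not say whether counting used strand.

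Chpt1 gave values of opposite sign from its exon and junction reads. It had 186 exon reads with cycloleucine, against 208 without, a log2 fold change of -0.35 (-0.69 to -0.11). Its junction reads were 47 in the cycloleucine and 26 in the untreated library, a log2 fold change of 0.65 (-0.07 to 1.40). The table lists 8324 bases of exon over 9 transcripts for Chpt1, of which 2 were detected in the cycloleucine and 1 in the untreated library. Its intron reads were 53 with cycloleucine, against 42 without. At this depth no direction can be given for it.

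**Figure D2:**
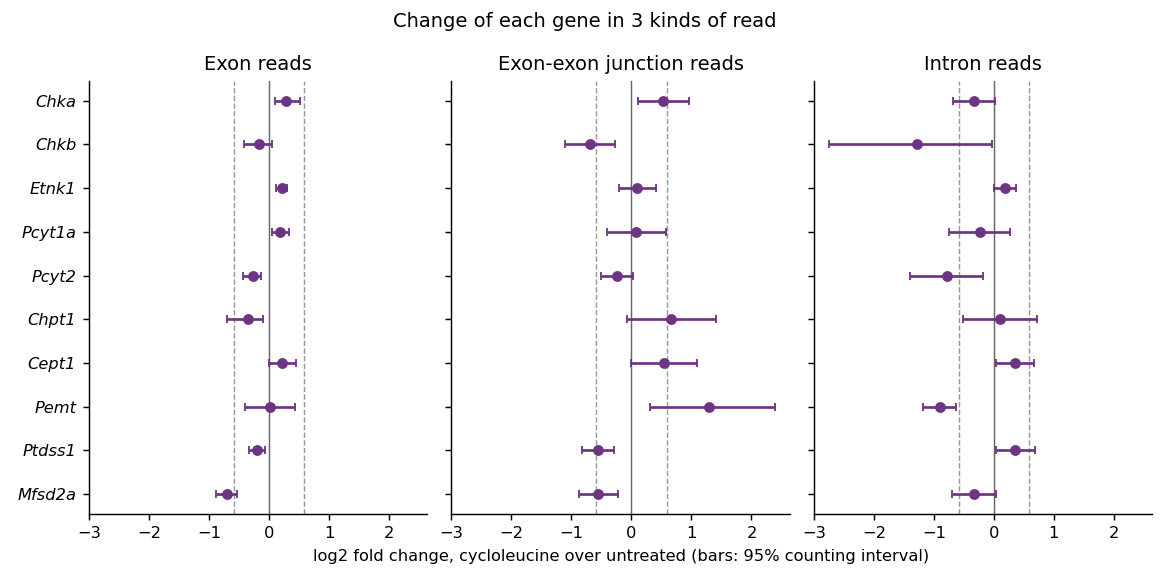
Log2 fold change, cycloleucine over untreated (horizontal axis), of the 10 genes from exon reads (left), uniquely placed exon-exon junction reads (middle) and intron reads (right), with 95% counting intervals as bars and dashed lines at 1.5-fold. Mfsd2a lies below 0 in each panel, while Pemt lies at 0.01 in exon, 1.30 in junction and -0.90 in intron reads.

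Pemt, the gene whose enzyme consumes SAM directly, had the same exon level in both libraries within counting error but differed in its introns. It had 108 exon reads with cycloleucine, against 91 without, or 1.61 RPKM with cycloleucine, against 1.59 RPKM without, and a log2 fold change of 0.01 (-0.40 to 0.43). Its intron reads were 182 in the cycloleucine library and 289 in the untreated library, a log2 fold change of -0.90 (-1.18 to -0.63). Introns made up 62.8% of the Pemt gene reads with cycloleucine, against 76.1% without, the highest share among the 10 members in both libraries. No other annotated gene overlaps Pemt in GENCODE M21.

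Spliced reads of Pemt went the other way from its introns. Junction reads numbered 34 in the cycloleucine library, against 12 in the untreated library, a log2 fold change of 1.30 (0.32 to 2.39). Of 7898 features with at least 40 junction reads over both libraries, 0.709% lay as high. Pemt was near that limit, and no share was computed for features with as few junction reads. The junction reads of Pemt are few, and its exon reads as a whole did not share the difference. Over the members with that many junction reads, all 10, 3 passed 1.5-fold, Pemt and Chpt1 higher and Chkb lower, against 11.3% of the features compared.

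The log2 change of the intron to exon ratio compares both kinds of read within a gene and does not depend on library size. It was computed for 7091 annotated genes whose intron and exon reads each came to at least 100 over both, among them 8 members. Pemt was lowest of these, at -0.91 (-1.39 to -0.43). Among all genes compared 0.804% were at least as low, and among the 826 of them with under 400 exon reads 2.42% were. Chka followed at -0.64 (-1.04 to -0.25). In GENCODE M21 Chka shares 647 bases with Gm16066 and 4106 bases with AC133523.2, both antisense, and their part in its reads was not tested. Antisense genes also overlap Pcyt1a by 1552, Etnk1 by 7146 and Ptdss1 by 1583 bases, and Slc51a on the opposite strand overlaps Pcyt1a by 567. Pemt and Chka, 2 of 8 members, differed by at least 1.5-fold in the ratio, both lower, against 9.31% of all genes compared in either direction and 3.86% lower.

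In intron reads alone, 2 of 8 members with at least 100 of them, Pemt and Pcyt2, passed 1.5-fold, both lower, against 8.14% of 9278 genes in either direction and 3.54% lower. The median ratio change of the 8 members was -0.23 and that of all genes compared 0.02. The members lay on both sides of it, 5 below and 3 above 0. Etnk1 and Cept1 were close to 0, and Pcyt1a at -0.43 (-0.93 to 0.08) and Pcyt2 at -0.50 (-1.09 to 0.09) had intervals that included it.

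Ptdss1 was highest in this ratio. Its exon reads were 1043 in the cycloleucine and 1016 in the untreated library, a log2 fold change of -0.20 (-0.32 to -0.07), and its junction reads 212 with cycloleucine and 271 without, at -0.56 (-0.82 to -0.29). Its intron reads were 201 with cycloleucine, against 133 without, at 0.36 (0.04 to 0.69), which gave a ratio change of 0.56 (0.22 to 0.90), just short of 1.5-fold. Ptdss1 shares 259 bases at its start with Mterf3 on the opposite strand, which had 613 exon reads with cycloleucine and 414 without. The part of Mterf3 reads in these values was not tested.

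**Figure D3:**
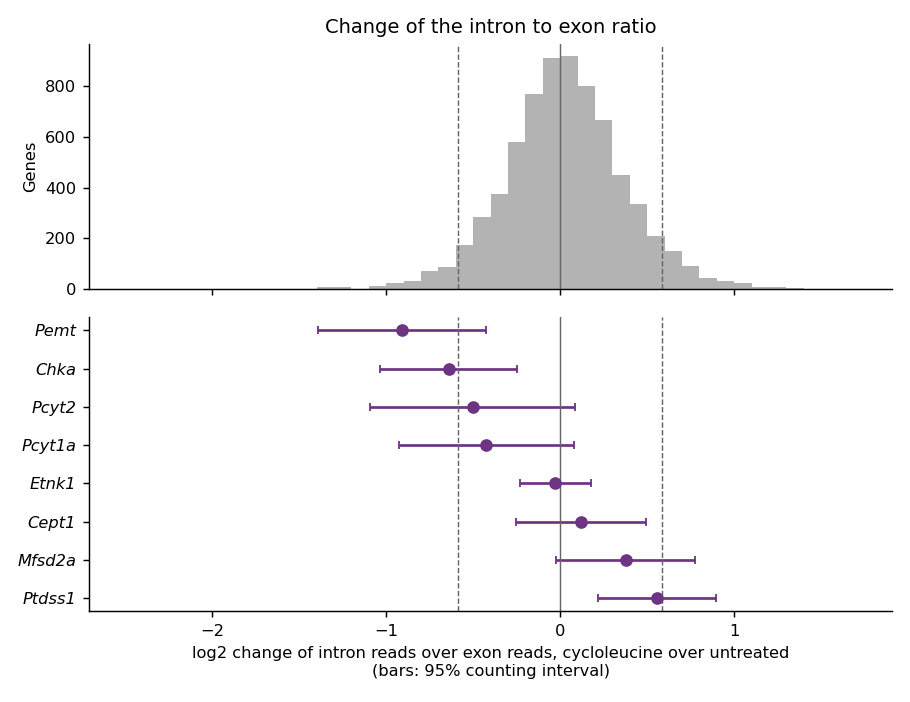
Log2 change of the intron to exon ratio, cycloleucine over untreated, for the 7091 genes compared (upper panel, number of genes) and for the 8 members among them with 95% counting intervals (lower panel), with dashed lines at 1.5-fold. Pemt at -0.91 and Chka at -0.64 lie past the lower line, and Ptdss1 at 0.56 is the highest member.

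**Figure D4:**
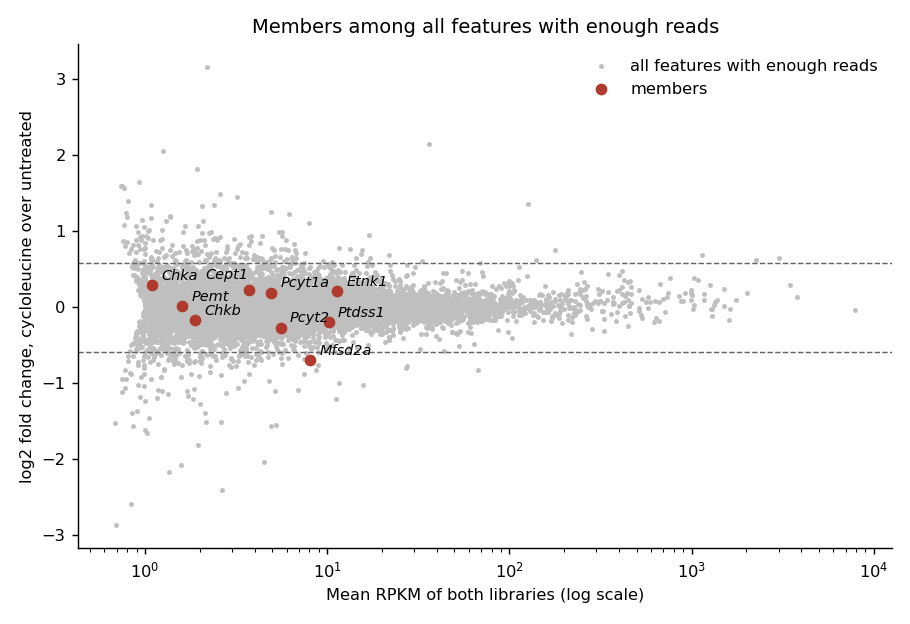
Log2 fold change from exon reads, cycloleucine over untreated (vertical axis), against the mean RPKM of both libraries (horizontal axis, log scale) for 9101 features, with the 9 members that have enough reads in red and dashed lines at 1.5-fold. Mfsd2a at -0.70 is the 1 member outside the lines.

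The surrounding pathway was followed in 10 further lists, from the supply of choline to membrane lipid regulators. Of 96 listed genes with a row, 64 had enough reads, and 1 of these, Mat2a, was at least 1.5-fold different, against 4.04% of all kept features. Mat2a, which encodes the SAM synthetase subunit that cycloleucine inhibits, had 182 RPKM with cycloleucine, against 71.2 RPKM without. Without Mat2a 23 of the 63 lay above and 40 below 0, and their median log2 fold change was -0.07, against 0.0022 for all kept features. Their range was -0.49 to 0.49, so the Mfsd2a value of -0.70 lay below all of them.

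In choline and ethanolamine supply 7 of 15 genes were measured, 2 above and 5 below 0, with a median of -0.07. Gpcpd1, a phosphodiesterase that releases choline from glycerophosphocholine, was at -0.44 (-0.56 to -0.34), with 5.62 RPKM in the cycloleucine and 7.68 RPKM in the untreated library. The choline transporter-like gene Slc44a2 was at -0.20 (-0.41 to -0.0012), Sgpl1, whose product yields phosphoethanolamine from sphingoid bases, at -0.08, and Gdpd1 at 0.13. Of other Kennedy pathway enzymes 2 of 5 were measured. These were the ethanolamine phosphotransferase gene Ept1 (now Selenoi) at -0.09 and the CTP synthase gene Ctps at -0.04.

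In lysophospholipid acylation and release 11 of 15 were measured, 4 above and 7 below 0, with a median of -0.11. Mboat1, a lysophospholipid acyltransferase gene, was the lowest at -0.49 (-0.72 to -0.29), with 326 exon reads with cycloleucine, against 392 without. Lpcat1, which reacylates lysophosphatidylcholine, was at -0.30 (-0.44 to -0.17), Lypla1 at -0.29, and the lysosomal phospholipase gene Pla2g15 at 0.23. None of these reached 1.5-fold.

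The phosphatidylserine route had 6 of 6 measured, 1 above and 5 below 0, with a median of -0.10. Ptdss2, which makes phosphatidylserine from phosphatidylethanolamine, was at -0.23 (-0.42 to -0.05), on the same side of 0 as Ptdss1. Slmo2 was at -0.21, Prelid2 at -0.14 and Prelid1, a mitochondrial phosphatidic acid carrier gene, at 0.17. Phosphatidic acid and diacylglycerol supply had 11 of 18 measured, 3 above and 8 below 0, and a median of -0.07, with the acyltransferase genes Agpat1 at -0.27 and Agpat5 at -0.26 and the diacylglycerol kinase genes Dgkz at -0.19 and Dgke at 0.14. The CDP-diacylglycerol branch, which leads to phosphatidylinositol and cardiolipin, had 6 of 7 measured, 3 on each side of 0, and a median of -0.03, with Cds2 at -0.21, Ptpmt1 at -0.16, Tamm41 at 0.09 and the cardiolipin synthase gene Crls1 at 0.07.

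Ether lipid genes had 4 of 5 measured and a median of -0.05. Tmem189, the plasmanylethanolamine desaturase gene that makes plasmalogens, was the highest measured gene of the lists beside Mat2a, at 0.49 (0.32 to 0.67), with 6.81 RPKM in the cycloleucine and 4.83 RPKM in the untreated library. Gnpat and Agps lay at -0.09 and Far1 at -0.0065. Sphingomyelin genes had 3 of 5 measured and a median of 0.04, with Smpd4 at -0.10, Samd8 at 0.09 and the acid sphingomyelinase gene Smpd1 at 0.04.

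On the SAM side of the Pemt route 5 of 7 genes were measured, with a median of 0.05. Beside Mat2a these included the regulatory subunit gene Mat2b at 0.09 the S-adenosylhomocysteine hydrolase gene Ahcy at -0.12 and Ahcyl1, which encodes a related protein without that activity, at -0.18. Among 13 regulators of membrane lipid genes 9 were measured, 5 above and 4 below 0, with a median of 0.04. The sterol response factor genes Srebf1 and Srebf2 were at -0.30 (-0.40 to -0.21) and -0.20 (-0.28 to -0.12), and Insig1, which holds them back in the endoplasmic reticulum, at 0.18 (0.13 to 0.24). Sp1, a factor that binds GC boxes, was at 0.37 (0.29 to 0.46), with 2775 exon reads in the cycloleucine and 1812 in the untreated library.

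**Figure D5:**
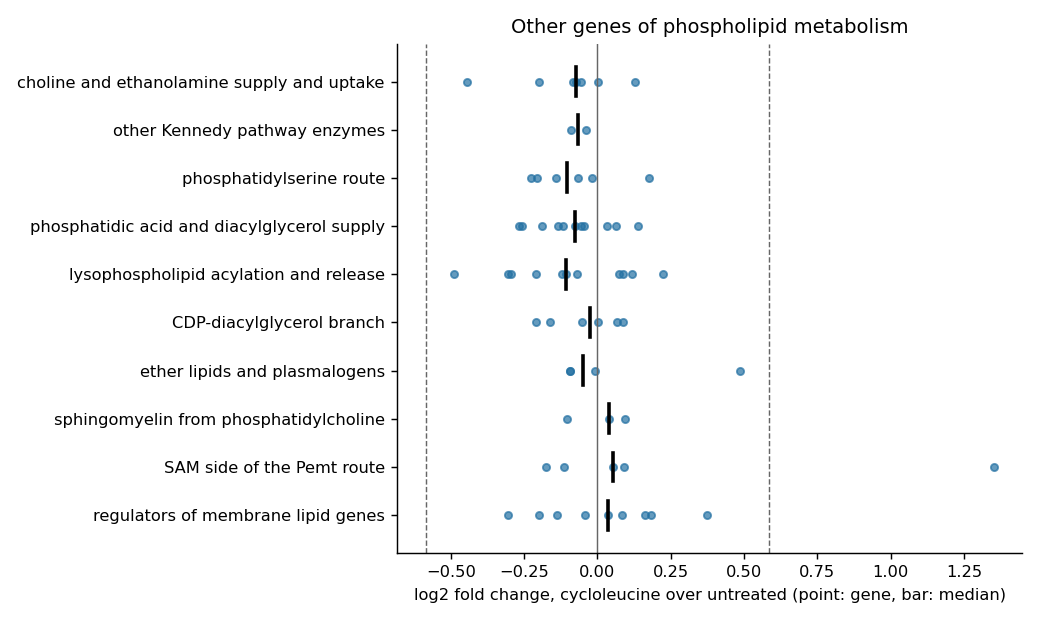
Log2 fold change, cycloleucine over untreated (horizontal axis), of the 64 measured genes in 10 lists of phospholipid metabolism and its regulators, with each gene as a point, the list median as a black bar and dashed lines at 1.5-fold. Mat2a at 1.35 is the 1 gene outside the lines.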

How the data were processed

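The deposited read counts per gene (exon, intron, junction and gene reads, all or uniquely placed) and the deposited RPKM were used as the authors gave them, per the file headers. Exon length and the library's gene reads returned the deposited RPKM from exon reads in 29646 of 29646 annotated features of each library, within a share of 0.0001. Per the submitters' processing notes the genome build was mm10. For the aligner, annotation release and use of strand, nothing is stated: not given in the sources used here. Starts were counted from 0 in the file and are given from 1.

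Log2 fold changes used a pseudocount of 0.1 RPKM. Exon and intron intervals are 95% Clopper-Pearson intervals of the cycloleucine share of reads, scaled by all gene reads. Junction values were scaled by uniquely placed gene reads. Ratio intervals are normal approximations from 4 counts, with 0.5 added to each. All cover counting error only, not variation between cultures, and without molecular identifiers PCR copies count as separate reads. Members, lists and thresholds were chosen with earlier results of these data known. Genes named are the 10 members and up to 4 of each list with the largest change. The ratio limits were set after seeing the data. Steps were tested on simulated data. Python 3.11.15, pandas 2.3.3, NumPy 2.4.6 and SciPy 1.17.1 were used.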

Additional observations from a re-analysis of the deposited data

How the results depend on the processing

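No paired analysis was possible because cycloleucine and untreated cells had 1 library each, and neither could be left out. The count of members at least 1.5-fold different was 1 under 6 alternatives and 0 with a threshold of 2-fold, which Mfsd2a does not reach. Exon values of members stayed within their counting intervals in 40 of 40 alternatives of pseudocount, unique reads and scaling, ratio changes in 20 of 20, intron values in 20 of 20, and list medians within the median bounds of their genes in 60 of 60. Rescaling shifted all genes by at most 0.0032. Junction reads moved 7 members out of the exon interval, to 0.53 for Chka, -0.68 for Chkb, 0.10 for Etnk1, 0.65 for Chpt1, 0.54 for Cept1, 1.30 for Pemt and -0.56 for Ptdss1. The cause was not tested. With at least 200 exon reads 8.67% of 6803 genes, against 9.31% of 7091, differed by 1.5-fold in the intron to exon ratio, and Pemt, with 199, did not enter.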

Other observations

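A gene too low for the limits used, and chosen after its values were seen, was Sgms1, which encodes the sphingomyelin synthase that takes its phosphocholine from phosphatidylcholine. It had 44 exon reads in the cycloleucine library, against 72 in the untreated library, a log2 fold change of -0.61, with a counting interval of -1.52 to -0.39 without the pseudocount. Its intron reads were 218 with cycloleucine, against 177 without. Among Kennedy pathway paralogues Etnk2 had 1 exon read in each library and Pcyt1b had 2 with cycloleucine, against 10 without, and neither was measurable at this depth.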
